A study of Mus musculus with 10 samples.

Results

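Cxcl2, Pf4, Ccl8, Ccr2 and Il1b encode myeloid chemokines, a chemokine receptor and interleukin 1 beta. They are 5 of the 251 probesets that the authors' deposited gene tables name, on arrays of 35556 probesets. The members were chosen by their names from those tables, and all 5 stand in the table of tumor cells (130 rows), which the authors selected on the difference between tumor cells of WT and b3KOM hosts. The difference between hosts in tumor cells is therefore a description here, with no test of its own. The titles of the authors' tables call their genes unique to a cell type, although 1 probeset, that of Zfp248, stands in both. How uniqueness was decided is not given, so the TAM comparison may have entered the selection too, and the genotype values in TAMs are likewise given as a description. The comparison between cell types was not part of what the tables report.

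The samples came from mice whose mammary fat pad had received 100000 cells of PyMT-BO1-GFP-Luc, a tumor line of mouse mammary origin that carries green fluorescent protein and luciferase. Hosts were wild type (WT) or b3KOM, in which integrin beta3 is deleted in macrophage lineage cells, so the injected tumor cells of all groups keep their own integrin genes. On day 10, CD206hi tumor-associated macrophages (TAMs) and tumor cells were sorted by flow cytometry and their RNA was hybridised without culture. The groups were WT TAMs (3 arrays), b3KOM TAMs (3), tumor cells from WT hosts (2) and tumor cells from b3KOM hosts (2). The sources used here do not give the age and sex of the mice, the Cre line behind the deletion or how many mice an array stands for, so the spread between arrays may in part be technical.

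Chemokines are small secreted proteins that bind heptahelical receptors and direct the movement of leukocytes. The CXC ligand CXCL2 draws neutrophils through the receptor CXCR2, and platelet factor 4 (CXCL4, from Pf4) is a heparin-binding chemokine of platelet granules that macrophages can also make. The CC ligand CCL8 in mice acts on the receptor CCR8, and CCR2 is the receptor for CCL2 by which monocytes leave the bone marrow and enter tissue. Interleukin 1 beta is made by activated myeloid cells as an inactive precursor, is cut by caspase-1, and drives inflammation through its receptor. In tumors, such signals are known for drawing monocytes and neutrophils to the tissue.

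In the RefSeq annotation of the GRCm38.p6 mouse assembly, Pf4 (chr5:90772435-90773383, plus strand) and Cxcl2 (chr5:90903899-90905938, plus strand) lie in the same CXC chemokine cluster, 130515 bases apart, with Cxcl3, Cxcl15 and Cxcl1 between them. Ccl8 lies at chr11:82115185-82116799 on the plus strand, Ccr2 at chr9:124101918-124109140 on the plus strand and Il1b at chr2:129364569-129371164 on the minus strand. All 5 genes have a window in the RefSeq promoter table of that build. The 120 bases just before the RefSeq start of transcription are shown for the 3 chemokine ligands and Il1b, because the signals of these 4 genes on tumor cell arrays differed between hosts in unlike directions. The Ccr2 window lies within the annotated gene, whose outermost start is further upstream, and is not shown. The outermost annotated start of Il1b is also upstream of the start used here, so the last bases of its sequence lie inside the annotated gene. Each sequence runs 5′ to 3′ on the gene's strand, and capitals mark motif matches.
Cxcl2 (chr5:90903779-90903898): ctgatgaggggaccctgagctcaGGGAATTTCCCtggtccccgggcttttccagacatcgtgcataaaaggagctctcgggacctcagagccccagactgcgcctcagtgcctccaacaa
Pf4 (chr5:90772315-90772434): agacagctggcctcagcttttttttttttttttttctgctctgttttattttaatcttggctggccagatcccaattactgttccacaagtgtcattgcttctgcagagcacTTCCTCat
Ccl8 (chr11:82115065-82115184): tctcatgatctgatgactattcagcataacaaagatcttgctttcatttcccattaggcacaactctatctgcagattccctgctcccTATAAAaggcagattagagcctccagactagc
Il1b (chr2:129371140-129371259): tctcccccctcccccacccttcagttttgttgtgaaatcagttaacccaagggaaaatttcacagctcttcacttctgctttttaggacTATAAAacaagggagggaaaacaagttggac

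Motifs were searched on both strands of the 250 bases before the start. The capitals in Cxcl2 are matches to the NF-kB site on either strand that overlap, from base -97 to -87 before the start, and 5.93% of the 32851 RefSeq promoter windows hold such a match. Ccl8 and Il1b each hold the TATA box letters TATAAA, beginning at base -32 and -31, as do 12.4% of all windows. The PU.1 core GAGGAA was found on the other strand in Pf4 at base -8 (the capitals above) and in Ccl8 at base -240, against 23.3% of all windows. Pf4 also holds the C/EBP letters TTGCNNAA at base -212 (9.56% of windows). The interferon-stimulated element, GAAA followed by any 2 bases and GAAA again, was in none of the 5 windows (2.98% of all windows), and Ccr2 held no match to any motif searched. These matches are letters in a window and no measure of binding.

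**Figure D1:**
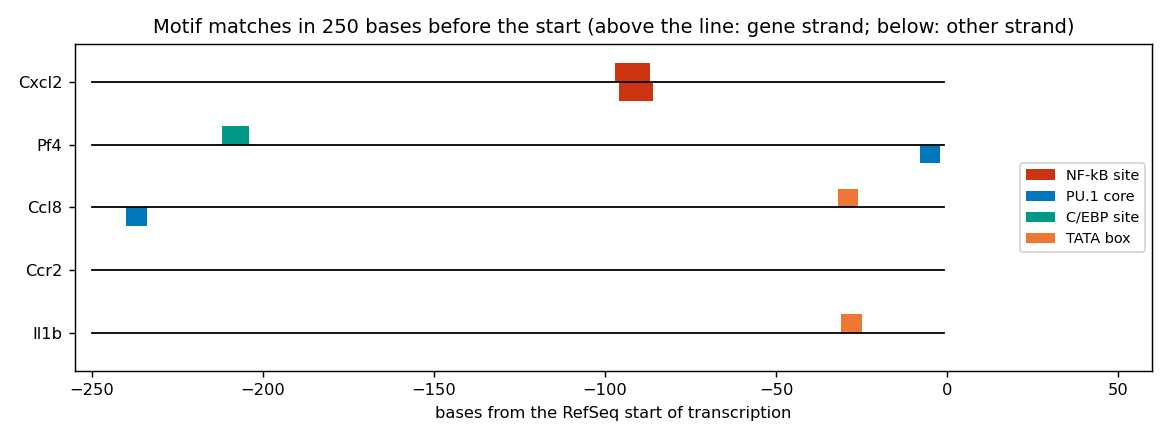
Motif matches in the 250 bases before the RefSeq start of transcription of the 5 genes; the x axis is the distance from the start in bases, blocks above a line are on the gene's strand and blocks below it on the other. The NF-kB matches of Cxcl2 overlap near base -97, and Ccr2 has no match.

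The 5 genes were far brighter in TAMs than in tumor cells. Values are log2 signals made by RMA, which corrects background, puts arrays on a common distribution and gives 1 value per probeset. Limma was fitted across 20246 probesets, those above 4.19 (the median of all deposited values, the table median below) on at least 2 arrays, with Benjamini-Hochberg adjustment of p-values over all of them. All 5 members passed this filter, Ccr2 only through its TAM arrays, so that it had to differ between cell types to be tested.

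Cxcl2, the neutrophil attractant, measured 11.67, 11.68 and 11.70 on the WT TAM arrays and 11.71, 11.69 and 11.54 on the b3KOM TAM arrays. On tumor cell arrays it measured 4.59 and 4.66 in cells from WT hosts and 5.78 and 5.98 in cells from b3KOM hosts. All TAM arrays were high and close together, and the tumor cell arrays of the hosts were apart from each other. The mean difference between TAMs and tumor cells was 6.41 ± 0.07 (SE, limma adjusted p = 3.21e-10).

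Pf4, the heparin-binding chemokine, measured 11.80, 11.79 and 11.84 on WT TAM arrays and 11.87, 11.89 and 11.75 on b3KOM TAM arrays. Tumor cells read 7.23 and 7.08 from WT hosts and 8.37 and 8.27 from b3KOM hosts, so that every tumor cell array stood well over the table median. The cell types differed by 4.09 ± 0.07 (SE, limma adjusted p = 5.78e-10).

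Ccl8, the CC ligand, measured 11.34, 11.50 and 11.73 on WT TAM arrays and 11.48, 11.15 and 11.64 on b3KOM TAM arrays. In tumor cells it read 7.79 and 7.57 from WT hosts and 6.92 and 6.70 from b3KOM hosts. It is the member whose order of hosts in tumor cells was the opposite, with the lower arrays from b3KOM hosts. Its difference between cell types was 4.23 ± 0.12 (SE, limma adjusted p = 1.37e-08).

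Il1b, the cytokine, measured 10.89, 10.56 and 10.86 on WT TAM arrays and 10.70, 10.54 and 10.58 on b3KOM TAM arrays. In tumor cells it read 4.07 and 3.97 from WT hosts, below the table median, and 4.81 and 4.75 from b3KOM hosts, above it. The arrays of the hosts did not overlap, but the lower pair lay at a level near background. The cell types differed by 6.29 ± 0.08 (SE, limma adjusted p = 3.91e-10).

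Ccr2, the monocyte receptor, measured 8.29, 8.30 and 8.70 on WT TAM arrays and 9.15, 8.49 and 8.75 on b3KOM TAM arrays. In tumor cells it read 3.10 and 3.35 from WT hosts and 3.89 and 3.97 from b3KOM hosts. All 4 tumor cell arrays were below the table median of 4.19, so its differences there are no exact sizes. The TAM means, 8.43 and 8.80, lay well over that level. The cell types differed by 5.03 ± 0.14 (SE), given with no test because Ccr2 passed the filter only through its TAM arrays.

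**Figure D2:**
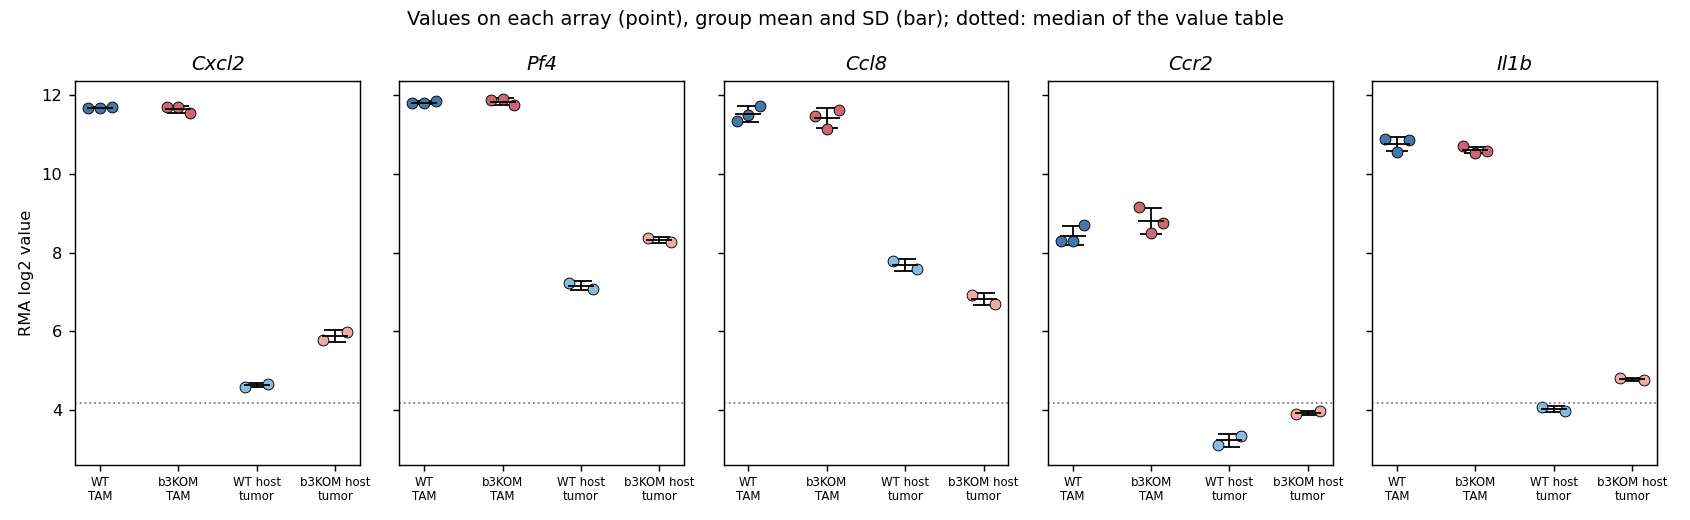
RMA log2 values (y axis) of the 5 genes on each of the 10 arrays by group, with the mean and SD (n = 3 for TAM groups, n = 2 for tumor cell groups) and the table median of 4.19 as a dotted line. TAM groups lie between 8.29 and 11.89, and the tumor cell groups between 3.10 and 8.37.

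Thus Cxcl2, Pf4, Ccl8 and Il1b were called higher in TAMs, by 4.09 to 6.41, and in these 4 genes every TAM array was above every tumor cell array. Ccr2 is left out of that count. Of all probesets tested, 24.9% were called higher in TAMs (5050, or 6735 with cyclic loess scaling, which moves the share of higher among all calls from 37.7% to 51.6%), and in 20.8% every TAM array was above every tumor cell array. Among the 87 other tested genes of the authors' tumor cell table, 69.0% were called higher in TAMs, so the direction was common in the table the members come from. The members were also picked as myeloid genes with earlier results of these data known. The median difference between cell types was 3.05 over those 87 genes and -0.14 over all probesets tested. Cyclic loess scaling moved that last median up by 0.18, and the differences of these 4 members then ran from 4.30 (Pf4) to 6.67 (Cxcl2).

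The genotype comparison in TAMs asks whether macrophages of b3KOM hosts carry other amounts of these transcripts. The gene of integrin beta3 is not among the named probesets, so its loss was not checked on these arrays. Limma called 0 of 5 members, 0 of 5 had an unadjusted p under 0.05, and in 0 of 5 did the arrays of the genotypes not overlap. Of all probesets tested, 0.0148% were called (3 of 20246, Mid1 and 2 without a gene name here) and 8.8% had arrays that did not overlap. Because the members come from a list titled as unique to tumor cells, the lack of calls in TAMs may in part be fixed by that choice, and nothing is read from it. In bulk samples, a change in the share of cells that make a transcript and a change in RNA per cell cannot be told apart.

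The members differed in how tightly the fit bound that difference, with a spread shared by the TAM and tumor cell arrays. Cxcl2 differed by -0.040 ± 0.088 (SE), b3KOM minus WT, with a 95% interval from -0.24 to 0.16. Pf4 differed by 0.024 ± 0.083, with an interval from -0.17 to 0.21. Of the ligands these had the smallest spread, with within-group SDs in TAMs of 0.064 and 0.059 against a median of 0.19 over all probesets tested. Such tight values were not particular to them. The 14 named macrophage markers given below had SEs of 0.074 (C1qa) to 0.099 (C1qc) for the TAM difference. Ccl8 varied more, with an SD of 0.22, and its difference of -0.10 ± 0.16 had an interval from -0.46 to 0.26. Leaving out WT TAM replicate 3 or b3KOM TAM replicate 2 turned its sign, to 0.0036 and 0.036.

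Il1b differed by -0.16 ± 0.11 (SE) in TAMs, with an interval from -0.40 to 0.09. Ccr2 had the largest difference of the members, 0.37 ± 0.18, with b3KOM higher and an interval from -0.05 to 0.78. Its highest TAM array was b3KOM replicate 1 at 9.15, and without that array the difference was 0.19. Its lowest b3KOM array, 8.49, was under the highest WT array, 8.70, so the genotypes overlapped. The median over the 5 members was -0.040, beside 0.0058 over all probesets tested. Fitted on TAM arrays alone, the SE of the difference was larger for each member. It was then 0.095 for Cxcl2, 0.093 for Pf4, 0.17 for Ccl8, 0.13 for Il1b and 0.20 for Ccr2.

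In tumor cells, 4 members had higher values from b3KOM hosts and Ccl8 had lower ones. These are the differences on which the authors selected the genes. Cxcl2 measured 4.62 ± 0.05 (SD, n = 2) from WT hosts and 5.88 ± 0.15 (SD, n = 2) from b3KOM hosts, a log2 difference of 1.26 or 2.39-fold. Its level from WT hosts lay little over the table median of 4.19, so this fold is no exact size. Pf4 stood at 7.16 ± 0.11 (SD, n = 2) and 8.32 ± 0.07 (SD, n = 2), which is 1.17 or 2.24-fold. Il1b, which lay near background in cells from WT hosts, differed by 0.76 (1.69-fold), and Ccr2, near background in cells from either host, by 0.70. Ccl8 stood at 7.68 ± 0.15 (SD, n = 2) from WT hosts and 6.81 ± 0.15 (SD, n = 2) from b3KOM hosts, a difference of -0.87, or 1.83-fold lower.

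The arrays of the hosts did not overlap in 5 of 5 members, and in 33.8% of all probesets tested they did not overlap either. Limma called 0.00988% of all probesets tested (2 of 20246, Cxcl2 and Pf4). Since the members were chosen on these differences, nothing is read from either count. The authors' deposited table, which runs WT minus b3KOM, gives log2 fold changes of -1.28 for Cxcl2, -1.16 for Pf4, 0.87 for Ccl8, -0.76 for Ccr2 and -0.75 for Il1b. Cxcl2 had the smallest p-value of the 130 rows in that table (0.000169), and the member nearest the end of the table was Ccr2 (p-value 0.00502, in place 61), where the largest p-value listed was 0.00996. The Ccr2 and Cxcl2 fold changes departed from those of the deposited array values (0.70 and 1.26 as b3KOM minus WT) by more than those of the other members.

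**Figure D3:**
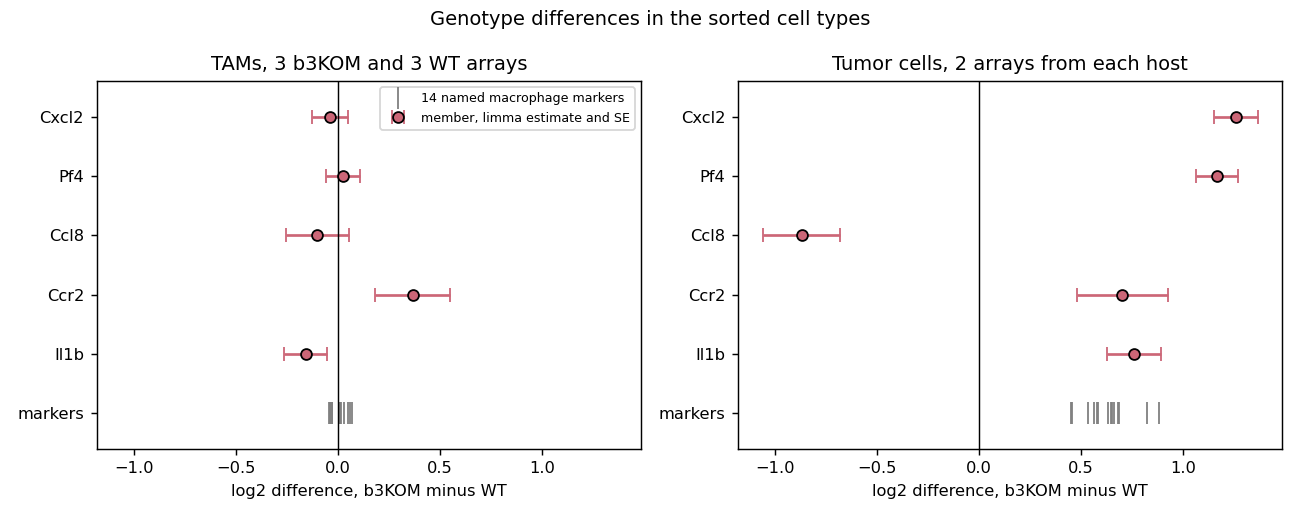
Log2 differences, b3KOM minus WT (x axis), of the 5 genes in TAMs and in tumor cells, with the standard error of the limma fit as bars and the 14 named macrophage markers as ticks. In TAMs the members lie between -0.16 and 0.37 and the markers near 0, and in tumor cells Ccl8 stands at -0.87 and the other members between 0.70 and 1.26.

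The signal that tumor cell arrays gave for a gene can be set against the TAM mean of the same host genotype. This is a ratio on the linear scale, with the TAM mean taken over log2 values. Any background that RMA left was not subtracted. For Cxcl2 it was 0.729% and 0.767% on the arrays of WT hosts and 1.71% and 1.97% on those of b3KOM hosts. For Pf4 it was 4.18% and 3.76%, and 9.03% and 8.46%. The b3KOM ratio over the WT ratio was thus 2.46 for Cxcl2 and 2.20 for Pf4, the largest among the members. On the tumor cell arrays of WT hosts Cxcl2 lay little over the table median, so its percentages and ratio are no exact sizes.

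For Il1b the tumor cell signal was 0.964% and 0.901% of the TAM mean in WT hosts and 1.79% and 1.72% in b3KOM hosts, a ratio of 1.89. The Il1b arrays of WT hosts lay below the table median, so its percentages and ratio are no exact sizes. For Ccr2 it was 2.50% and 2.96%, and 3.34% and 3.52%, a ratio of 1.26, with the background part of the signal large. For Ccl8 it was 7.51% and 6.48% in WT hosts, the highest of the members there, and 4.41% and 3.80% in b3KOM hosts, a ratio of 0.587. Pf4 and Ccl8, well over the table median on every tumor cell array, therefore did not keep 1 common ratio between hosts. Neither did the macrophage markers given below.

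Macrophage markers had the same order of hosts as Cxcl2, Pf4, Il1b and Ccr2. Of 26 marker symbols in the list (Emr1 is an older symbol of Adgre1), 14 are named, all through the tumor cell table and thus chosen on these arrays. In the b3KOM host's tumor cells 14 of 14 had higher values, by 0.45 to 0.88 log2 units. Of all 130 rows in that table, 65 were higher from b3KOM hosts and 65 from WT hosts. Since the markers were chosen on this difference, nothing is read from their count. The summed linear signal of the 14 markers was 2325 and 2409 on the tumor cell arrays of WT hosts and 3543 and 3900 on those of b3KOM hosts. On the TAM arrays it was 57154 to 59285, and no marker was below the table median on any tumor cell array. As a share of the TAM mean the markers stood at 1.61% to 7.82% (median 3.06%) in WT hosts and 2.29% to 11.2% (median 4.54%) in b3KOM hosts. The b3KOM ratio over the WT ratio ran from 1.35 (C1qa) to 1.89 (Tyrobp) among the markers. The part of these markers in the differences of Cxcl2, Pf4, Il1b, Ccr2 and Ccl8 was not tested. F13a1, the 1 named monocyte marker of 9, differed by 0.50 in tumor cells. Pf4 itself is the 1 named platelet marker of 10, and none of the neutrophil, dendritic, T and NK, B, epithelial, fibroblast or endothelial markers is named, so those cell types were not checked and the tumor cells have no marker of their own here.

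**Figure D4:**
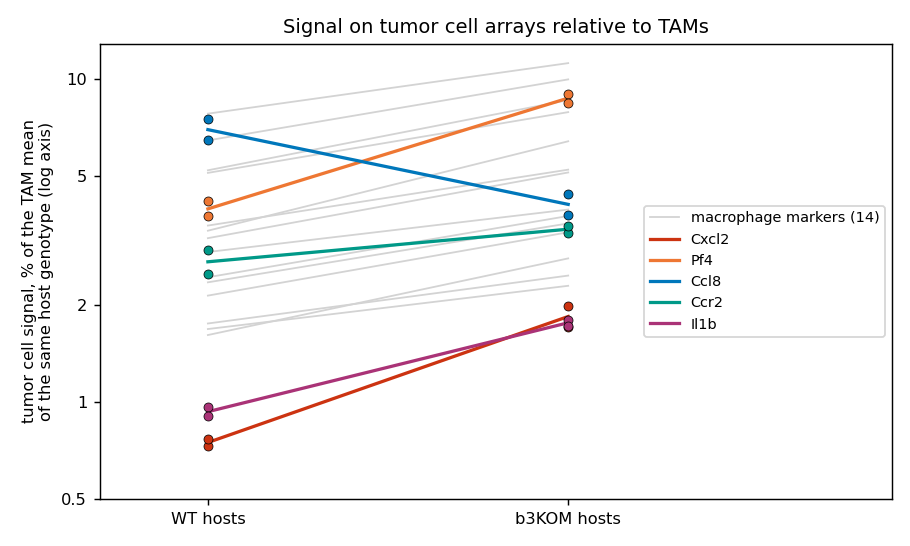
Signal on tumor cell arrays as a percentage of the TAM mean of the same host genotype (y axis, log scale), for tumor cells from WT and b3KOM hosts; points are the 2 arrays per host, coloured lines join the means of the 5 genes and grey lines those of the 14 macrophage markers. Ccl8 stands at 6.98% in WT hosts and 4.09% in b3KOM hosts, while the other members and the markers are higher in b3KOM hosts.

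Other named genes of the chemokine and interleukin 1 systems were few. Of 15 CXC ligands 4 are named, of 22 CC ligands 1, of 23 receptors 4 and of 29 interleukin 1 family genes 1. In the TAM genotype comparison 0 of these passed in either direction, and all but Ccr9 carry the same title of genes unique to tumor cells. Cxcl9 and Cxcl10, the interferon-induced ligands of CXCR3, differed by -0.78 ± 0.47 and -0.36 ± 0.25 (SE) in TAMs. In tumor cells they differed by -0.58 ± 0.57 and -0.94 ± 0.30 (SE), the order of hosts seen in Ccl8. For Cxcl9 this SE was nearly as large as the difference, so its direction there is not settled. Their receptor gene Cxcr3 differed by -0.43 ± 0.15 (SE) in TAMs and by -0.66 ± 0.19 (SE) in tumor cells.

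Cxcr4, the receptor of CXCL12, had the same order of hosts as Ccr2 and Cxcl2 in tumor cells, at 4.79 from WT hosts and 5.64 from b3KOM hosts, and differed by -0.15 ± 0.20 (SE) in TAMs. Ccr9 did not pass the filter on dim values. Of 35 NF-kB-linked inflammatory genes 3 are named, the anti-apoptotic Bcl2a1a, Bcl2a1b and Bcl2a1d, nearly identical copies whose probesets may share signal. They differed by -0.04 to -0.02 in TAMs, where 0 of 3 passed, and by 0.74 to 0.82 in tumor cells. All of these but Ccr9 come from the table that was selected on the tumor cell comparison, so their values there are descriptions as well.

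The likeness of profiles was measured as the root mean square difference over the 10 arrays, each gene centred on its own mean, among 171 other named probesets. Cxcl2 and Il1b were each other's nearest, at 0.21 log2 units, followed for either by Clec5a, a myeloid DAP12-coupled lectin, and Sla, a Src-like adaptor (0.34 and 0.42 for Cxcl2, 0.27 and 0.34 for Il1b). Pf4 was nearest to Bcl2a1b (0.16), the granule proteoglycan gene Srgn (0.18) and the cathepsin S gene Ctss (0.18). Ccr2 was nearest to the complement receptor gene C3ar1 (0.21), Ms4a7 (0.22) and the Fc receptor gene Fcgr3 (0.24). Ccl8 had no neighbour as close, and its nearest was Cxcl10 at 0.37, then I830077J02Rik (0.38) and Xlr4b (0.41). These last genes differed between hosts in tumor cells by 0.15 and -0.03 against -0.87 for Ccl8, so the measure was set mostly by the gap between cell types.

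By level, the TAM groups were at the top in all 5 genes. Tumor cells from b3KOM hosts came next and those from WT hosts lowest in Cxcl2, Pf4, Il1b and Ccr2, with the other order in Ccl8. The order of the tumor cell groups is the difference on which the authors selected these genes, so nothing is read from it. Ccr2 in all tumor cells, and Il1b in those from WT hosts, lay below the table median of 4.19. The arrays of the neighbours at the top, WT and b3KOM TAMs, overlapped in each of the 5 genes. Of all probesets tested, 8.8% had TAM arrays that did not overlap between genotypes. The choice of the members may have fixed this overlap in part, and nothing is read from it either.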

How the data were processed

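The deposited value table gives log2 values for 35556 probesets on 10 arrays, whose medians lie between 4.13 and 4.22. Per the submitters' processing notes, the authors used RMA in Affymetrix Expression Console; neither versions nor the array model are given in the labels. Their tables of selected genes (122 rows for TAMs, 130 for tumor cells), also deposited, hold, per the file headers, a log2 fold change, a mean log2 value, a t score and a p-value for each probeset. Probesets were named only from these tables. RNA was amplified from 50 ng per the labels' protocols, and the number of arrays limits the precision.

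Limma 3.58.1 in R 4.3.3 fitted 1 mean per group (6 residual and 2.35 prior degrees of freedom), with calls at an adjusted p under 0.05. The spread is shared by all groups. The fit was tested on simulated data. Members and gene lists were chosen with earlier results of these data known. The genes named are the members, the 3 nearest profiles of each, and the named genes of the chemokine, interleukin 1, NF-kB-linked and macrophage lists. The labels name no batch. Alternatives were no filter, a stricter filter (5.19), cyclic loess, aligned medians, single cell types, array weights, a trended robust prior and leaving out each array. Promoter sequences are RefSeq's, build GRCm38.p6. No protein sequences were used here.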

Additional observations from a re-analysis of the deposited data

How the results depend on the processing

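Without 1 array the TAM difference ran from -0.070 to 0.011 for Cxcl2, -0.0031 to 0.070 for Pf4, -0.21 to 0.036 for Ccl8, -0.26 to -0.098 for Il1b and 0.19 to 0.52 for Ccr2. The signs of Cxcl2 (without b3KOM TAM replicate 3), Pf4 (without b3KOM TAM replicate 2) and Ccl8 are therefore not settled. In tumor cells the direction of each member was kept in all settings, with 1.15 to 1.36 for Cxcl2, 1.09 to 1.24 for Pf4, -0.98 to -0.76 for Ccl8, 0.58 to 0.82 for Ccr2 and 0.71 to 0.81 for Il1b without 1 array. The cell type calls of Cxcl2, Pf4, Ccl8 and Il1b were kept in all settings, with differences from 4.05 (Pf4) to 6.67 (Cxcl2), though under the stricter filter Il1b entered only through its TAM arrays. Ccr2 enters through TAMs alone in each filtered setting, so its calls are not counted.

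The count of calls over all probesets was less stable, and the causes were not tested. In TAMs it was 3, with 9 under the stricter filter, 9 with a trended robust prior, 0 on TAM arrays alone and 0 to 5 without 1 array (5 without WT TAM replicate 1). In tumor cells it was 2, with 0 without a filter, 0 on tumor cell arrays alone, 30 with array weights, 17 with a trended robust prior and 0 to 2 without 1 array (2 only without b3KOM TAM replicate 3). Between cell types it ran from 12083 to 13282 without 1 array. No paired analysis was possible because the labels carry no replicate number shared by the groups. Ccr2 in all tumor cells, and Il1b in those from WT hosts, lay below the table median, where signal over background limits any size.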
